A study of Mus musculus with 9 samples.

Results

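Endosomal Toll-like receptors and the proteins that move and serve them were followed in splenic dendritic cells by RNA sequencing. The group held 10 genes named for their known roles and found in the table by symbol, 7 receptors, 1 trafficking chaperone and 2 adaptors, and all 10 were among the 14862 genes of the deposited table. All 9 libraries came from spleens of C57Bl/6 mice aged 8 to 12 weeks and carried no labelled treatment or allele. They fell into 3 libraries each of mcDC, cDC1 and cDC2. cDC1 and cDC2 are the conventional dendritic cells of type 1 and type 2, while the labels do not expand mcDC, an abbreviation used in the field for merocytic dendritic cells. The sources used here give neither the sort's surface markers nor any pooling of animals. P-values therefore rest on the variation from library to library, part of which may be technical.

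Endosomal Toll-like receptors detect nucleic acids and some microbial proteins that reach the endosome after uptake, and so report on the contents of engulfed particles. The membrane protein UNC93B1 carries them from the endoplasmic reticulum to the endosome, where proteases trim their ectodomains. TLR3 then signals through TRIF, encoded by Ticam1, and the other endosomal receptors signal through MyD88, both towards NF-kB and interferon regulatory factors. In mouse spleen, cDC1 are known for TLR3 and for the TLR11 and TLR12 pair that senses profilin of apicomplexan parasites, and cDC2 for TLR7.

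Levels are given in RPKM, reads per kilobase of gene length scaled to the library's total, which puts genes of different length on 1 scale. Library totals recovered from the values were 5.14 to 8.22 M reads in mcDC, 9.68 to 11.01 M in cDC1 and 9.19 to 12.43 M in cDC2. For a gene of 1 kb, each read added 0.080 to 0.194 RPKM. mcDC replicate 3 stood apart, at -73.6 on the second principal component, where the other libraries lay between -6.5 and 20.8, and with 12.35% of genes at 0 against 2.71% to 6.47%. Markers followed the labels of cDC1 and cDC2. Xcr1, a chemokine receptor of cDC1, was at 10.3 to 19.4 RPKM in mcDC, 132 to 174 in cDC1 and 1.95 to 2.81 in cDC2, and Sirpa, a cDC2 marker, was at 145 to 213 RPKM in mcDC, 11.6 to 43.0 in cDC1 and 267 to 278 in cDC2.

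Of the 10 genes, 6 passed the test between mcDC and cDC1, where 15.4% of all 11971 genes tested passed. Between mcDC and cDC2 it was 4, where 3.66% of all genes passed, and between cDC1 and cDC2 it was 7, where 19.6% passed. The test was limma on log2(RPKM + 1), with p-values adjusted over all genes tested by the Benjamini and Hochberg method and called under 0.05. All 10 genes passed the filter on low values, Tlr8 through its levels in mcDC and cDC2, since it was under 1 RPKM in each cDC1 library. Tlr8 is counted in the 6 and the 7, where its calls against cDC1 are a description. In mcDC against cDC1, 2 of the genes were higher and 4 lower, where 9.53% and 5.88% of all genes were. In mcDC against cDC2, 2 were higher and 2 lower, where 2.06% and 1.6% of all genes were. In cDC1 against cDC2, 3 were higher and 4 lower, where 8.85% and 10.7% of all genes were. The median log2 fold change of the 10 genes was -0.24, -0.36 and -0.30 in the 3 comparisons, against 0.094, 0.060 and -0.022 over all genes tested. The comparisons share libraries and are not independent of each other. The 10 genes were chosen with earlier results of these data known, so these counts are a description and not a test of an excess.

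**Figure D1:**
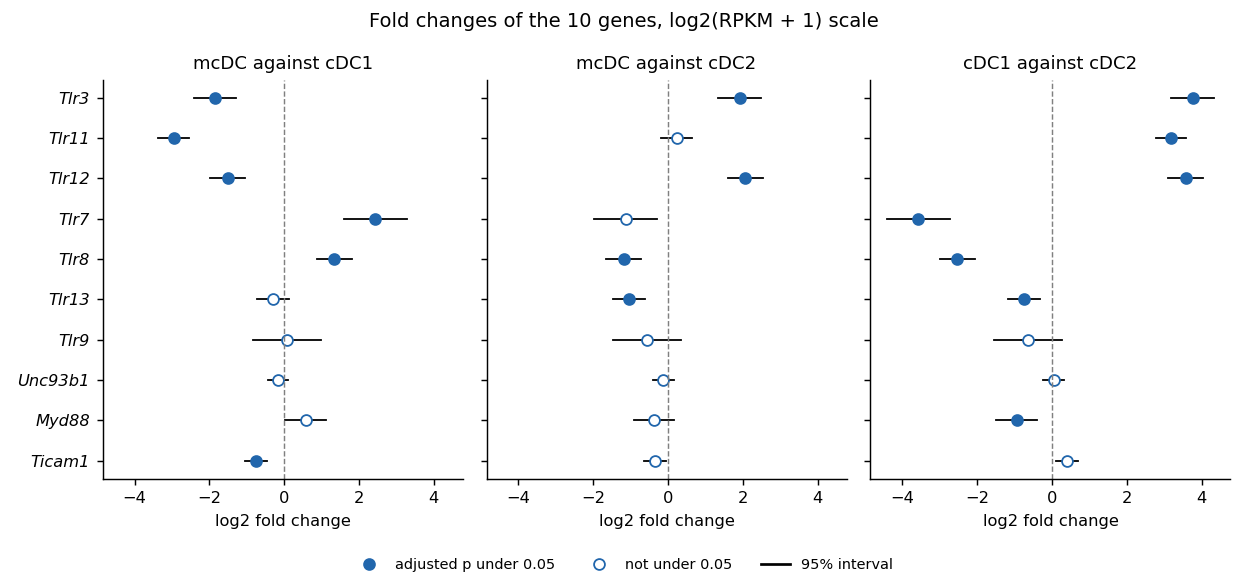
Log2 fold change (x axis, log2(RPKM + 1) scale) of each of the 10 genes in mcDC against cDC1, mcDC against cDC2 and cDC1 against cDC2, with 95% intervals from limma; filled points had an adjusted p under 0.05. Tlr3, Tlr11 and Tlr12 lie far to the right in cDC1 against cDC2 and to the left in mcDC against cDC1, while Unc93b1 stays near 0 in each panel.

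The receptors most abundant in cDC1 were Tlr11, Tlr3 and Tlr12, and mcDC held less of each. Tlr11 (Entrez gene 239081) encodes a receptor that in mice binds profilin of Toxoplasma. It was at 15.7, 22.9 and 21.1 RPKM in mcDC replicates 1, 2 and 3, 138, 180 and 162 in cDC1 and 20.8, 15.3 and 14.5 in cDC2. The cDC1 libraries stood far above the others, and the mcDC and cDC2 libraries overlapped. The log2 fold change was -2.95 ± 0.18 in mcDC against cDC1 (SE, limma adjusted p = 1.9e-05) and 3.18 ± 0.18 in cDC1 against cDC2 (5.2e-06). mcDC and cDC2 were not told apart at Tlr11, with a log2 fold change of 0.23 and a 95% interval of -0.19 to 0.64 (adjusted p = 0.59). In sorted bulk libraries such as these, fewer cells of a type and less RNA per cell cannot be told apart.

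Tlr3 (142980), the receptor for double-stranded RNA, was graded over the 3 subsets. It was at 18.4, 35.99 and 34.9 RPKM in mcDC, 89.8, 116 and 113 in cDC1 and 5.28, 7.94 and 7.65 in cDC2. No library of 1 subset overlapped with another, and replicate 1 was the lowest of each. Against cDC1, mcDC had less Tlr3 (log2 fold change -1.85 ± 0.25, limma adjusted p = 0.0012) and against cDC2 more (1.91 ± 0.25, 0.0048). In cDC1 against cDC2 the log2 fold change was 3.76 ± 0.25 (adjusted p = 1.2e-05).

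Tlr12 (384059), the partner of TLR11 in profilin sensing, had the same order of subsets. Its levels were 12.0, 11.5 and 18.0 RPKM in mcDC, 34.9, 38.0 and 49.97 in cDC1 and 2.47, 2.02 and 3.06 in cDC2. Again each subset kept to a range of its own. mcDC was lower than cDC1 (-1.51 ± 0.21, limma adjusted p = 0.0013) and higher than cDC2 (2.06 ± 0.21, 0.0018), and cDC1 exceeded cDC2 by 3.57 ± 0.21 on the log2 scale (5.4e-06). The ratio of Tlr11 to Tlr12 RPKM was 1.17 to 1.98 in mcDC, 3.23 to 4.73 in cDC1 and 4.73 to 8.44 in cDC2. Each mcDC library had a lower ratio than every library of the other subsets.

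**Figure D2:**
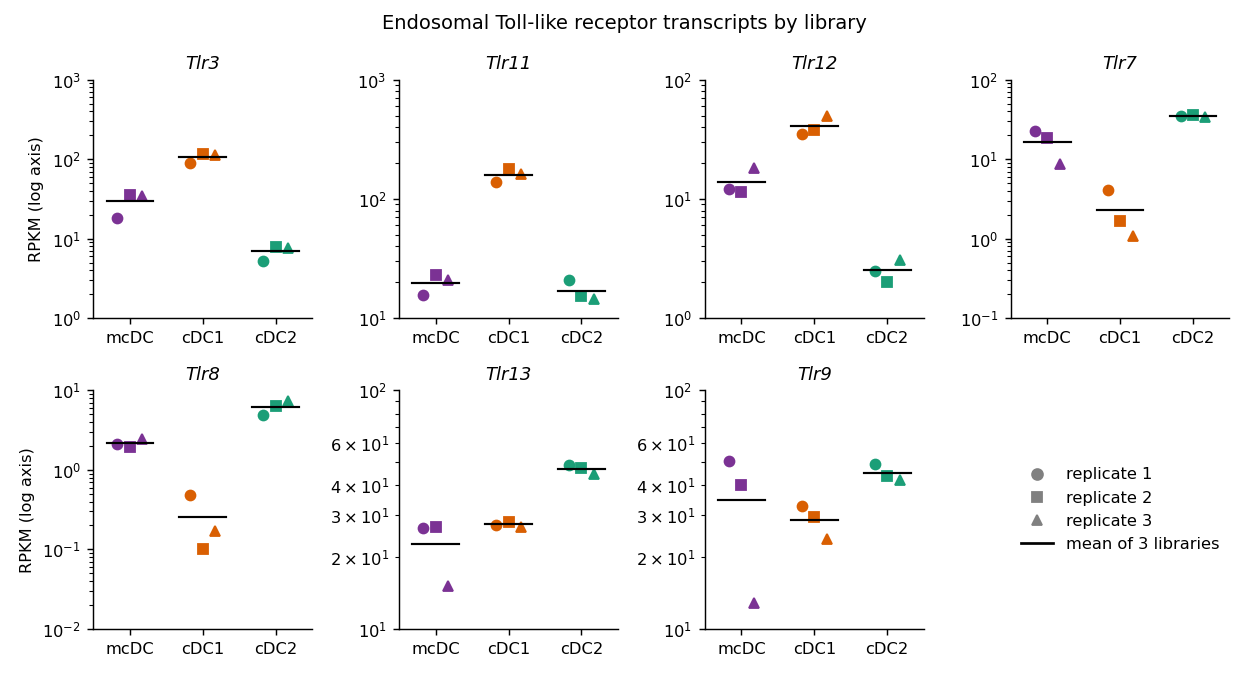
RPKM (log axis, with its own range in each panel) of the 7 receptor genes in mcDC, cDC1 and cDC2; each point is a library, its shape gives the replicate, and the line is the mean of 3 libraries. Tlr3 and Tlr12 form 3 separate levels, Tlr11 is high in cDC1 alone at 138 to 180 RPKM, and mcDC replicate 3 lies below its fellow libraries for Tlr7, Tlr13 and Tlr9.

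The start regions of Tlr11, Tlr3 and Tlr12 are shown because these genes were each higher in cDC1 than in cDC2, so that letters they share or do not share can be seen. Promoters are from RefSeq (build GRCm38.p6), 250 bases before to 50 after the start site listed there, at chr14:50357664-50357963 (plus strand) for Tlr11, chr8:45410331-45410630 (minus strand) for Tlr3 and chr4:128618570-128618869 (minus strand) for Tlr12. The Tlr3 site lies 695 bases inside the outer end of the gene's locus in RefSeq, so it is not the outermost start of that gene, while the sites of Tlr11 and Tlr12 are at the ends of their loci. Capitals mark matches to the searched motifs.
Tlr11 promoter: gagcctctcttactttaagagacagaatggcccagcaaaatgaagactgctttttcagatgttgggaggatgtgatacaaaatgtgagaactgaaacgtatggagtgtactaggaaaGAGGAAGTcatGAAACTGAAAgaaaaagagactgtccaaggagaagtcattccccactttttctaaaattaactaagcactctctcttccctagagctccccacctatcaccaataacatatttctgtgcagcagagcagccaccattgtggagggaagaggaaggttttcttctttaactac
Tlr3 promoter: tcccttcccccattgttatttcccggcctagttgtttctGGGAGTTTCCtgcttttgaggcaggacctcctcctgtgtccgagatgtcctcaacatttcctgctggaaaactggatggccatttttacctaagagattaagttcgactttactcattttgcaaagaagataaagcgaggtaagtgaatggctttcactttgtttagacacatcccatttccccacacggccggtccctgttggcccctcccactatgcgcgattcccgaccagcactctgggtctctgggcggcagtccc
Tlr12 promoter: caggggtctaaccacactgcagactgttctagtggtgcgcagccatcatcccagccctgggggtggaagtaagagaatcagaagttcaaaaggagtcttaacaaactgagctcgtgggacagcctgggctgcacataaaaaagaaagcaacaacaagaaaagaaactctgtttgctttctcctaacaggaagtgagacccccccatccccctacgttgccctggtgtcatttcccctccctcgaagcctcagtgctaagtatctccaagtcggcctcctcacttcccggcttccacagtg
The motifs, searched on both strands in the 8 of 10 genes that had an entry, were those of an interferon response element (GAAA, any 2 bases, GAAA), an ETS-IRF composite (GGAA, any 2 bases, GAAA), AP-1 (TGANTCA), PU.1 (GAGGAAGT) and NF-kB (GGGA, any base, TTTCC). Among 32851 promoters of the same length, 3.44%, 2.72%, 7.81%, 3.2% and 0.411% held these motifs, in that order. Tlr11 held the PU.1 letters at -133 to -126 and, 3 bases on, the interferon response letters at -122 to -113, with the listed start site as 0. Tlr3 held the NF-kB letters at -211 to -202 from its listed site, and Tlr12 held none of the motifs. The interferon response letters were also found in Myd88 at -40 to -31, and Tlr9 held the AP-1 letters at -58 to -52 and the PU.1 letters on the other strand at 10 to 17. These matches describe letters in a window and are not evidence of binding.

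Tlr7 and Tlr8, neighbours on the X chromosome that encode receptors for single-stranded RNA and its breakdown products, ran the other way. Tlr7 (170743) was at 23.0, 18.3 and 8.73 RPKM in mcDC, 4.15, 1.65 and 1.08 in cDC1 and 35.5, 36.2 and 33.9 in cDC2. The 3 subsets did not overlap, and the spread in RPKM was widest in mcDC. Relative to its lower level cDC1 also varied, with replicate 1 the highest. Against cDC1, mcDC had more Tlr7 (log2 fold change 2.43 ± 0.38, limma adjusted p = 0.0024) and cDC1 had less than cDC2 (-3.57 ± 0.38, 0.00015). mcDC against cDC2 did not pass at Tlr7, with -1.13 ± 0.38 and a 95% interval of -1.98 to -0.29 (adjusted p = 0.15).

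Tlr8 (170744), which in mice responds weakly to ligands of its human counterpart, was the least abundant of the receptors in mcDC and cDC1. It was at 2.10, 1.94 and 2.41 RPKM in mcDC, 0.490, 0.0998 and 0.17 in cDC1 and 4.93, 6.33 and 7.44 in cDC2. The cDC1 values rest on 49, 10 and 15 reads, while mcDC had 98 to 157 reads and cDC2 412 to 841. No libraries overlapped between the subsets. Tlr8 passed the filter on low values through mcDC and cDC2, where it was higher, so a difference from cDC1 was to be found. Its values against cDC1 are a description. The log2 fold change was 1.34 ± 0.21 in mcDC against cDC1 (limma adjusted p = 0.0023), -1.19 ± 0.21 in mcDC against cDC2 (0.014) and -2.53 ± 0.21 in cDC1 against cDC2 (3.5e-05). At such low levels the added 1 RPKM understates the change, and with 0.1 RPKM in its place the log2 fold changes were 2.82, -1.48 and -4.30. The call against cDC2 was then lost (adjusted p = 0.107), as it was without cDC2 replicate 2 (0.0867) or replicate 3 (0.087).

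Tlr13 (279572), a mouse receptor for bacterial ribosomal RNA, was highest in cDC2. Its levels were 26.6, 26.6 and 15.2 RPKM in mcDC, 27.4, 28.1 and 26.8 in cDC1 and 48.9, 47.2 and 44.8 in cDC2. The cDC2 libraries lay above all others. Tlr13 was lower in mcDC than in cDC2 (-1.05 ± 0.19, limma adjusted p = 0.017) and lower in cDC1 than in cDC2 (-0.75 ± 0.19, 0.021). Each mcDC library lay below every cDC1 library, yet the difference of -0.30 ± 0.19 did not pass (95% interval -0.73 to 0.13, adjusted p = 0.35). Both calls were lost when libraries were left out. Without any 1 library of cDC1 or cDC2 the adjusted p of cDC1 against cDC2 was 0.0557 to 0.0735, and without cDC2 replicate 1, 2 or 3 that of mcDC against cDC2 was 0.0637, 0.0863 and 0.0652.

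Tlr9 (81897), the receptor for unmethylated CpG DNA, was not called between any subsets. It was at 50.7, 40.2 and 12.9 RPKM in mcDC, 32.6, 29.6 and 23.7 in cDC1 and 49.0, 43.9 and 42.0 in cDC2. The mcDC libraries spanned the range of all others, and cDC1 lay below cDC2 without overlap. The log2 fold change was 0.072 in mcDC against cDC1 (95% interval -0.83 to 0.98, limma adjusted p = 0.93), -0.57 in mcDC against cDC2 (-1.48 to 0.34, 0.53) and -0.64 in cDC1 against cDC2 (-1.55 to 0.27, 0.35). Without mcDC replicate 3 Tlr9 was higher in mcDC than in cDC1 by 0.65 (adjusted p = 0.0183) and lower in cDC1 than in cDC2, at -0.64 (adjusted p = 0.0082), and mcDC against cDC2 was 0.0092 on the log2 scale.

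Genes of other blood cells moved with some of these receptors, and their part in the results was not tested. Summed over 11 of 12 neutrophil markers, RPKM was 40.9 to 51.2 in mcDC, 15.0 to 42.2 in cDC1 and 197, 1015 and 1704 in cDC2 replicates 1, 2 and 3. Tlr8 and Myd88 were also lowest in cDC2 replicate 1 and highest in replicate 3, whereas Tlr7 and Tlr13 were at 35.5 and 48.9 RPKM in replicate 1, where this sum was lowest. S100a8 and S100a9 were the largest parts of the sum in each cDC2 library, and Mmp9 ran the other way there, at 40.5, 27.1 and 18.5 RPKM. The neutrophil gene S100a8 was at 0.619 to 21.3 RPKM in mcDC, 1.62 to 14.2 in cDC1 and 60.2 to 632 in cDC2. Monocyte markers, 10 of 10, summed to 429 to 586 in mcDC, 262 to 338 in cDC1 and 1034 to 2117 RPKM in cDC2. Lyz2 was the largest part in each cDC2 library, at 698, 1176 and 1462 RPKM. Ly6c2 did not follow the sum, at 24.4 to 44.85 RPKM in mcDC, 23.8 to 45.6 in cDC1 and 5.835 to 39.4 in cDC2. Treml4 was highest in cDC1.

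B cell markers, 10 of 11 matched, summed to 55.7, 50.1 and 29.9 RPKM in mcDC, 34.8, 29.9 and 28.97 in cDC1 and 38.1, 29.03 and 29.02 in cDC2. In mcDC the library with the lowest sum was also the lowest in Tlr9. Red pulp macrophage markers, 10 of 10, were at 422 to 823 in mcDC, 117 to 160 in cDC1 and 189 to 222 RPKM in cDC2, with C1qa at 47.7 to 88.1 RPKM in mcDC, 7.39 to 15.2 in cDC1 and 12.4 to 15.6 in cDC2. Plasmacytoid dendritic cell markers, 8 of 9, summed to 75.03 to 87.2 RPKM in mcDC, 99.0, 43.7 and 46.0 in cDC1 and 51.2 to 60.2 in cDC2. Spib was the largest part in each mcDC library, at 35.7 to 41.4 RPKM, and was at 32.4 to 38.2 in cDC2. Siglech was at 2.89 to 4.85 RPKM in mcDC, 4.35 to 16.8 in cDC1 and 0.613 to 0.777 in cDC2. Ccr9 and Pacsin1 were called lower in mcDC than in cDC1, and Spib and Cox6a2 higher. In cDC1 replicate 1, Siglech was highest, at 16.8 RPKM, and Ly6d lowest, at 1.84. The cDC2 markers summed to 200, 54.75 and 61.5 RPKM in cDC1. Tlr7, Tlr8 and Tlr9 were also highest in replicate 1 of cDC1, and the part of these markers was not tested. T cell markers, 9 of 9, summed to 36.4 to 53.0 RPKM in mcDC, 27.4 to 52.0 in cDC1 and 18.6 to 28.4 in cDC2. NK cell markers, 7 of 8, summed to 97.1 to 212 RPKM in mcDC, 67.4 to 89.3 in cDC1 and 51.4 to 76.9 in cDC2.

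Read within a subset, the receptor levels gave 3 different orders. mcDC averaged 34.6 ± 19.5 RPKM of Tlr9, 29.8 ± 9.85 of Tlr3, 22.8 ± 6.59 of Tlr13, 19.9 ± 3.74 of Tlr11, 16.65 ± 7.25 of Tlr7, 13.9 ± 3.62 of Tlr12 and 2.15 ± 0.243 of Tlr8 (SD, n = 3). Neighbours in this order lay within their spread, apart from Tlr8 at the low end. cDC1 averaged 160 ± 21.1 RPKM of Tlr11, 106 ± 14.3 of Tlr3, 41.0 ± 7.95 of Tlr12, 28.7 ± 4.53 of Tlr9, 27.4 ± 0.645 of Tlr13, 2.29 ± 1.63 of Tlr7 and 0.253 ± 0.208 of Tlr8, with Tlr9 and Tlr13 within their spread. cDC2 averaged 47.0 ± 2.02 RPKM of Tlr13, 45.0 ± 3.61 of Tlr9, 35.2 ± 1.17 of Tlr7, 16.85 ± 3.45 of Tlr11, 6.96 ± 1.46 of Tlr3, 6.23 ± 1.26 of Tlr8 and 2.52 ± 0.522 of Tlr12. There, Tlr13 and Tlr9 lay within their spread, as did Tlr3 and Tlr8.

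Summed over the 7 receptors, RPKM was 148, 157 and 113 in mcDC, 327, 393 and 376 in cDC1 and 167, 159 and 153 in cDC2. Tlr3, Tlr11 and Tlr12 together made up 31.1%, 44.7% and 65.4% of this sum in mcDC replicates 1, 2 and 3, 80.2% to 86.2% in cDC1 and 15.9% to 17.1% in cDC2. Tlr9 gave the largest share in mcDC replicates 1 and 2, at 34.2% and 25.5%, but 11.4% in replicate 3, where Tlr3 led with 30.8%. The ratio of Tlr3 to Tlr7 RPKM was 0.802, 1.97 and 3.99 in mcDC, 21.6 to 105 in cDC1 and 0.149 to 0.226 in cDC2. mcDC thus fell between the conventional subsets in this ratio, without overlap.

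**Figure D3:**
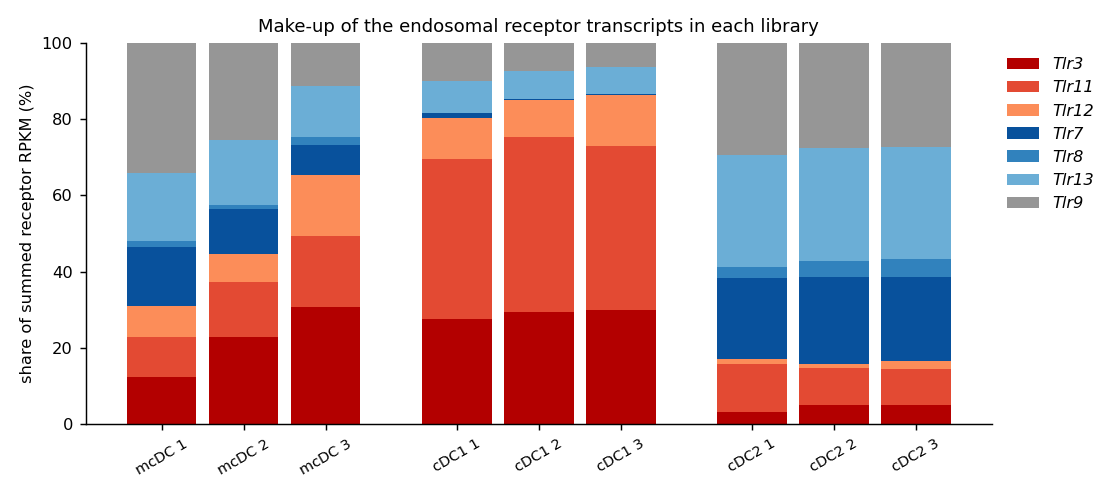
Share of the summed RPKM of the 7 endosomal receptors (y axis, percent) in each of the 9 libraries; colours stand for receptors. Tlr3, Tlr11 and Tlr12 fill 80.2% to 86.2% of the cDC1 bars, Tlr7, Tlr8, Tlr13 and Tlr9 fill most of the cDC2 bars, and the mcDC bars lie between and differ among themselves.

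mcDC did not stand at 1 common point between cDC2 and cDC1. On a linear RPKM scale with the cDC2 mean at 0% and the cDC1 mean at 100%, the 3 mcDC libraries stood at -0.8% to 4.2% for Tlr11, 11.5% to 29.3% for Tlr3 and 23.5% to 40.4% for Tlr12. For Tlr7 they stood at 37.2% to 80.4%, for Tlr8 at 63.8% to 71.8% and for Tlr13 at 104% to 163%, past the cDC1 mean. Myd88 was spread from 13.2% to 88.6%. Of the 9 listed cDC1 markers, 8 had a mcDC mean between 0% and 50%, from 1.4% for Cd8a and Cd207 over 8.4% for Xcr1, 13.2% for Clec9a and 22.9% for Wdfy4 to 44.8% for the transcription factor gene Irf8, and Batf3 stood at 125%. The 9 cDC2 markers ran from -66.1% for Esam and -37.2% for Dtx1, past the cDC2 mean, to 103% for Mgl2, with Sirpa at 41.5% and Itgam at 89.2%. The mean positions of Tlr3 and Tlr12, 23.0% and 29.6%, lay between those of Wdfy4 and Irf8, above most of the cDC1 markers. Batf3 was not called between cDC1 and cDC2 (log2 fold change 0.53, limma adjusted p = 0.079), and its mcDC libraries stood at 46.9% to 248.6%. The other 8 cDC1 markers spanned 1.4% to 44.8%, which held the mean positions of Tlr11, Tlr3 and Tlr12. Myd88, Tlr7 and Tlr8, at 47.2%, 56.4% and 68.3%, lay above that span and within the -66.1% to 103% of the cDC2 markers. Tlr13, at 124%, lay past both spans. These positions are a description and were not tested.

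**Figure D4:**
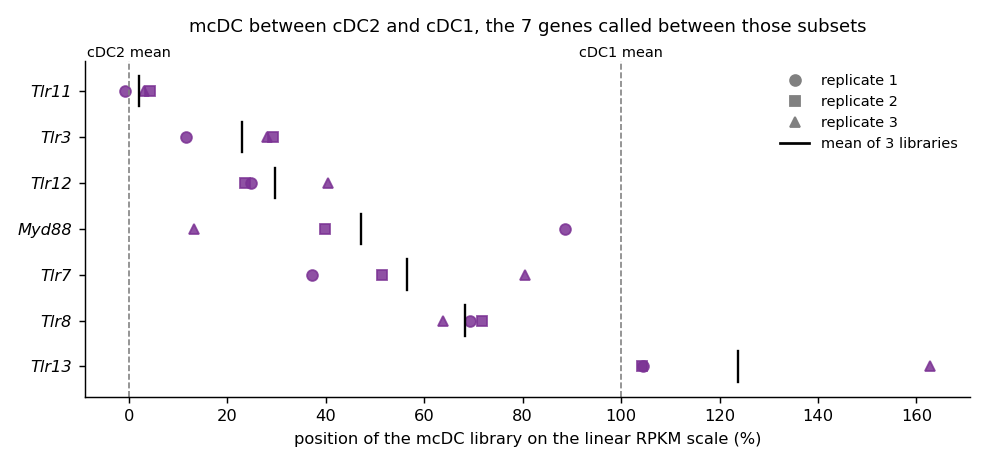
Position of each mcDC library (points, shape by replicate; black line, mean) on the linear RPKM scale in percent, with the cDC2 mean at 0 and the cDC1 mean at 100, for the 7 of the 10 genes called between cDC1 and cDC2. Tlr11 sits at the cDC2 mean, Tlr3 and Tlr12 at 11.5% to 40.4%, and Tlr13 past the cDC1 mean.

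Unc93b1 (54445), the chaperone that endosomal receptors need to leave the endoplasmic reticulum, was the most abundant of the 10 genes in every library. It was at 376, 325 and 334 RPKM in mcDC, 374, 405 and 388 in cDC1 and 417, 361 and 355 in cDC2. The subsets overlapped, and each mean lay above 98.7%, 98.8% and 98.8% of the genes tested. The log2 fold change was -0.17 in mcDC against cDC1 (95% interval -0.45 to 0.10, limma adjusted p = 0.39), -0.13 in mcDC against cDC2 (-0.40 to 0.14, 0.64) and 0.045 in cDC1 against cDC2 (-0.23 to 0.32, 0.87). Relative to the receptor sum, Unc93b1 RPKM was 2.07 to 2.95 in mcDC, 1.03 to 1.14 in cDC1 and 2.27 to 2.502 in cDC2, lowest in cDC1, where the receptor sum was highest.

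Of the adaptors, Myd88 was called between cDC1 and cDC2 and Ticam1 between mcDC and cDC1. Myd88 (17874), the adaptor of all the receptors here other than TLR3, was at 58.6, 83.7 and 97.6 RPKM in mcDC, 47.5, 48.4 and 62.0 in cDC1 and 74.7, 105 and 134 in cDC2. In each subset replicate 1 was the lowest and replicate 3 the highest, and cDC1 lay below cDC2. Myd88 was lower in cDC1 than in cDC2 (-0.95 ± 0.24, limma adjusted p = 0.021). This call was lost without cDC1 replicate 1 (0.0705), cDC1 replicate 2 (0.0835), cDC2 replicate 2 (0.0736) or cDC2 replicate 3 (0.0825). In mcDC against cDC1 the log2 fold change was 0.57 (95% interval 0.032 to 1.11, adjusted p = 0.15, and 0.0476 without mcDC replicate 1) and in mcDC against cDC2 it was -0.37 (-0.91 to 0.17, 0.48).

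Ticam1 (106759), which encodes the TLR3 adaptor TRIF, was at 9.78, 8.00 and 9.33 RPKM in mcDC, 16.4, 16.3 and 14.8 in cDC1 and 12.8, 11.1 and 11.3 in cDC2. The subsets did not overlap, and mcDC was the lowest. Ticam1 was lower in mcDC than in cDC1 (-0.75 ± 0.13, limma adjusted p = 0.0043). mcDC against cDC2 had -0.34 ± 0.13 (adjusted p = 0.21) and cDC1 against cDC2 had 0.40 ± 0.13 (0.057), neither past the threshold. The ratio of Myd88 to Ticam1 RPKM was 5.99, 10.5 and 10.5 in mcDC, 2.90, 2.97 and 4.19 in cDC1 and 5.84, 9.45 and 11.8 in cDC2. Both mcDC and cDC2 lay above cDC1 without overlap (exact two-sided permutation p = 0.1 for each, the smallest that 3 against 3 libraries allow), and mcDC and cDC2 had log2 ratios of 3.119 and 3.118 on average (p = 1.0).

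**Figure D5:**
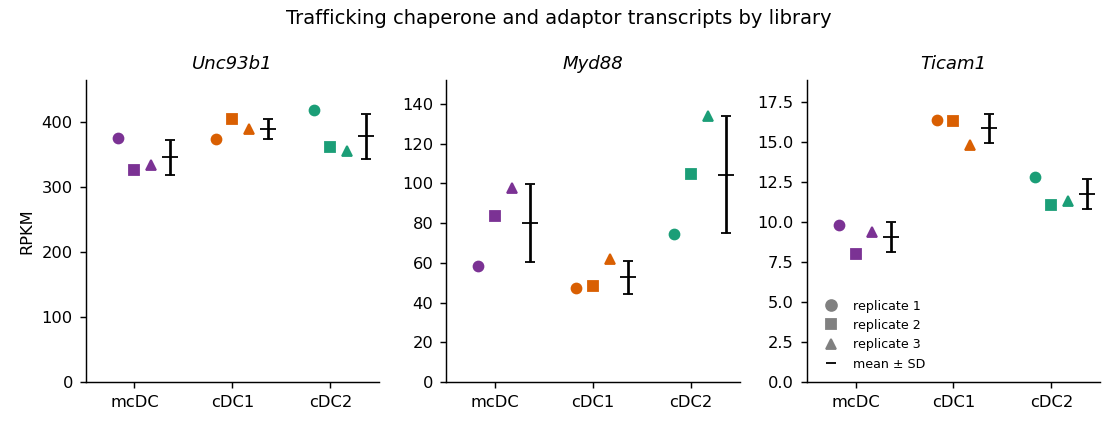
RPKM (linear axis from 0) of Unc93b1, Myd88 and Ticam1 in mcDC, cDC1 and cDC2; points are libraries, with shape by replicate, and the black bar is the mean ± SD of 3 libraries. Unc93b1 overlaps between the subsets, Myd88 has its highest library at 134 RPKM in cDC2, and Ticam1 forms 3 levels with mcDC lowest.

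Over the libraries, 4 of the 10 genes overlapped between mcDC and cDC2 (21.6% of all genes tested did not overlap), 3 between mcDC and cDC1 (30.5% did not) and 1, Unc93b1, between cDC1 and cDC2 (46.1% did not). The genes without overlap thus numbered 6, 7 and 9 of 10.

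Other genes of the pathway were read from lists chosen by known role, with earlier results of these data known. Their counts beside those of all genes are a description. Their median log2 fold changes in cDC1 against cDC2 were -0.20 for trafficking, -0.77 for proteases, -0.11 for nucleic acid handling, -0.10 for the MyD88 branch, -0.043 for the TRIF branch, 0.17 for negative regulators and -1.21 for surface receptors, against -0.022 over all genes. In mcDC against cDC1 the medians ran from -0.097 for negative regulators to 0.75 for surface receptors, against 0.094, and in mcDC against cDC2 from -0.30 for surface receptors to 0.053 for nucleic acid handling, against 0.060. Among 11 genes for chaperoning and trafficking of the receptors, 2 were higher and 1 lower in mcDC than in cDC1 (27.3%, against 15.4% of all genes), 0 were called between mcDC and cDC2 (0 also at an unadjusted p under 0.05), and 2 were higher and 3 lower in cDC1 than in cDC2 (45.5%, against 19.6%). Slc15a4, an endolysosomal histidine and peptide transporter needed for TLR7 and TLR9 signalling, was at 45.9 to 56.2 RPKM in mcDC, 16.2 to 29.5 in cDC1 and 57.6 to 65.1 in cDC2. Its log2 fold change was 1.21 ± 0.19 in mcDC against cDC1 (limma adjusted p = 0.0027) and -1.47 ± 0.19 in cDC1 against cDC2 (0.00056). 5430427O19Rik, the mouse gene for TASL, the adaptor that SLC15A4 recruits, had 1.16 ± 0.21 (0.0055) and -1.14 ± 0.21 (0.0042) in the same comparisons. Hsp90b1, the chaperone gp96 that folds Toll-like receptors, was higher in cDC1 than in cDC2, at 309 to 375 against 153 to 191 RPKM (1.01 ± 0.20, 0.0066).

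Among 5 endosomal proteases tested, 2 were higher in mcDC than in cDC1, 1 was lower in mcDC than in cDC2 and 4 were lower in cDC1 than in cDC2, where 9.53%, 1.6% and 10.7% of all genes were. Ctss, cathepsin S, was at 527 to 587 RPKM in mcDC, 378 to 460 in cDC1 and 794 to 971 in cDC2, with a log2 fold change of -1.09 ± 0.14 in cDC1 against cDC2 (limma adjusted p = 0.00045). Its difference of -0.67 ± 0.14 in mcDC against cDC2 (0.030) was lost without cDC2 replicate 1, 2 or 3, cDC1 replicate 2 or 3 or mcDC replicate 2 and with the 2 subsets fitted alone, with adjusted p up to 0.144 over all alternatives. Lgmn, asparagine endopeptidase, was higher in mcDC than in cDC1 (0.85 ± 0.19, 0.015, and 0.0662 without cDC1 replicate 2) and lower in cDC1 than in cDC2 (-0.88 ± 0.19, 0.0094).

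Of 11 genes of nucleic acid delivery and digestion, 2 were higher and 3 lower in mcDC than in cDC1, where 15.4% of all genes were called, and 2 were higher in mcDC than in cDC2, where 3.66% were. In cDC1 against cDC2, 3 were higher and 2 lower, where 19.6% of all genes were called. Over the alternatives the list had 3 to 6, 1 to 4 and 3 to 6 calls. Pld3, an endolysosomal exonuclease for single-stranded nucleic acids, was at 15.9, 17.6 and 20.2 RPKM in mcDC, 2.95, 4.67 and 5.35 in cDC1 and 4.63, 4.46 and 5.08 in cDC2. Every mcDC library lay far above the rest, with log2 fold changes of 1.85 ± 0.20 against cDC1 (limma adjusted p = 0.00028) and 1.72 ± 0.20 against cDC2 (0.0032). Of the 10 red pulp macrophage markers, 9 were also higher in mcDC than in cDC1, where 9.53% of all genes were, and 8 than in cDC2, where 2.06% were. Adgre1 (-0.82, limma adjusted p = 0.23) and Spic (0.95, 0.1) were not called against cDC2. The part of these markers in the level of Pld3 was not tested. Dnase1l3, a secreted nuclease that digests DNA of dead cells, was lower in mcDC than in cDC1, at 94.9 to 144 against 436 to 583 RPKM (-2.22 ± 0.19, 1e-04). Ly75, the DEC-205 receptor, which takes up CpG oligonucleotides, was at 2.25 to 11.4 RPKM in mcDC and 42.5 to 52.1 in cDC1 (-2.63 ± 0.45, 0.0041).

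Below the adaptors lie kinases, ubiquitin ligases and transcription factors. Of 18 genes of the MyD88 branch, 1 was higher and 1 lower in mcDC than in cDC1, 0 were called between mcDC and cDC2 (1 at an unadjusted p under 0.05, and 0 in every alternative run), and 2 were higher and 2 lower in cDC1 than in cDC2. These are 11.1% of the list in mcDC against cDC1 and 22.2% in cDC1 against cDC2, near the 15.4% and 19.6% of all genes. Irf1, an interferon regulatory factor that acts with MyD88, was at 59.7 to 70.6 RPKM in mcDC, 108 to 128 in cDC1 and 68.6 to 75.6 in cDC2, lower in mcDC than in cDC1 (-0.89 ± 0.11, limma adjusted p = 0.00081) and higher in cDC1 than in cDC2 (0.74 ± 0.11, 0.0014). Nfkb1, an NF-kB subunit, was lower in cDC1 than in cDC2 (-1.28 ± 0.24, 0.0039).

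Of 12 genes of the TRIF branch, 1 was higher in mcDC than in cDC1, 0 were called between mcDC and cDC2 (0 at an unadjusted p under 0.05, and 0 in every alternative run) and 2 were lower in cDC1 than in cDC2. That is 8.33% of the list in mcDC against cDC1 and 16.7% in cDC1 against cDC2, at or below the 15.4% and 19.6% of all genes. The higher gene in mcDC was Ticam2, the bridging adaptor of TLR4, at 23.9, 19.7 and 8.03 RPKM in mcDC and 7.29, 4.20 and 2.59 in cDC1 (1.64 ± 0.39, limma adjusted p = 0.020). This call was lost without cDC1 replicate 2 or 3 or mcDC replicate 2 and with the 2 subsets fitted alone, with adjusted p of 0.00147 to 0.0791 over all alternatives. Of 10 negative regulators tested, 0 were called between mcDC and cDC1 (1 at an unadjusted p under 0.05, and up to 2 under other settings), 1 was lower in mcDC than in cDC2, and 1 was higher and 1 lower in cDC1 than in cDC2, 20% of the list against 19.6% of all genes. That lower gene was in both cases Irak3, an inhibitory kinase of the MyD88 complex, at 0.424 to 1.51 RPKM in mcDC, 0.153 to 0.794 in cDC1 and 4.06 to 5.67 in cDC2. Irak3 passed the filter on low values through cDC2, the subset where it was high, so a difference was to be found and its values are a description. Its log2 fold change was -1.64 ± 0.27 in mcDC against cDC2 (limma adjusted p = 0.011, and 0.00679 to 0.0685 over all alternatives, lost without cDC2 replicate 2 or 3 and with 0.1 RPKM added in place of 1) and -2.09 ± 0.27 in cDC1 against cDC2 (0.00047). The neutrophil and monocyte marker sums were also higher in cDC2 than in mcDC and cDC1, and their part was not tested. Among single monocyte markers, Ly6c2 was not called and Treml4 was highest in cDC1. Ccr2 was near level between mcDC and cDC2 (log2 fold change 0.12, limma adjusted p = 0.77). Within cDC2, Irak3 was highest in replicate 2, at 5.67 RPKM, while both sums were highest in replicate 3.

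The surface Toll-like receptors, which detect microbial lipids and proteins outside the cell, formed a list of 5. All 5 were lower in cDC1 than in cDC2, where 10.7% of all genes were, while among the 7 endosomal receptors 3 were higher and 3 lower. Of the markers tested, 10 of 11 for neutrophils and 7 of 9 for monocytes were also lower in cDC1, and their part was not tested. Among the monocyte markers, Treml4 was higher in cDC1 (0.72, limma adjusted p = 0.039) and Ly6c2 was not called (0.95, 0.31). Tlr1, a partner of TLR2, was at 45.8 to 66.3 RPKM in mcDC, 11.0 to 19.3 in cDC1 and 59.7 to 73.3 in cDC2. It was higher in mcDC than in cDC1 (1.92 ± 0.21, limma adjusted p = 0.00038) and lower in cDC1 than in cDC2 (-2.22 ± 0.21, 9.2e-05). Between 2 and 5 of the surface receptors were called between cDC1 and cDC2 over all alternatives. Tlr1 and Tlr6 were called in each of them. Whether the surface and endosomal groups differ was not tested.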

How the data were processed

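RNA was extracted with a mir-VANA kit and libraries were made with the NEBNext Ultra Directional kit, per the labels' protocols. The authors deposited RPKM values of 14862 genes in 9 libraries. The files name no unit, and it was read from the values. The genome build was mm8, per the submitters' processing notes. Aligner, counter and annotation are not given in the sources used here. Whole reads came out of the RPKM steps for 100.0% of nonzero values (within 0.01 read). Where all 9 counts of a gene share a factor, as may hold for Unc93b1, the recovered reads are too low. Read counts and library totals are therefore the smallest that the values allow. The 8 files of single libraries matched their columns, while mcDC replicate 3 was read from the joint table alone.

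Here log2(RPKM + 1) was fitted with limma 3.58.1 in R 4.3.3, with all 3 groups in 1 model and a trended prior, on the 11971 genes that exceeded 1 RPKM in 2 libraries or more. Residual degrees of freedom were 6, and standard errors had a median of 0.209. The fit was also run on simulated counts with the same dispersion for every gene, no run effect and no outlying library. That run therefore cannot speak to such features of the real data. P-values were adjusted over all genes tested, at a threshold of 0.05. RPKM were not rescaled for composition. Ratios, motifs and figures used Python 3.11.15 with pandas 2.3.3, scipy 1.17.1 and matplotlib 3.10.9.

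The members and lists were chosen with earlier results of these data known. All 10 members are named. From each list up to 3 called genes per direction and comparison could be named, those with the largest change. Similar genes were the nearest 3 by root mean square difference. Of 163 listed names 157 were matched. Alternatives were another scaling, pseudocount, filter, prior, set of samples or replicate block, voom on recovered reads, and each library left out. Promoters were matched by symbol. Receptor proteins were not analysed here.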

Additional observations from a re-analysis of the deposited data

How the results depend on the processing

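Of the 30 results for single members, 17 were called. Of these, 13 were called under all 18 alternatives and 4 lost the call under some (Tlr8 and Tlr13 in mcDC against cDC2, Tlr13 and Myd88 in cDC1 against cDC2), and 0 called results reversed. The kept calls include Tlr8 in mcDC against cDC1 and in cDC1 against cDC2, which are a description. Of the 13 not called, 5 passed under some alternative. Ticam1 in cDC1 against cDC2 passed in 8, with adjusted p from 0.0184 to 0.205. With the 2 groups fitted alone, Tlr9 passed in cDC1 against cDC2 (0.00641) and Tlr13 was lost in mcDC against cDC2 (0.0722). Members called numbered 6 to 7, 2 to 4 and 5 to 9 in mcDC against cDC1, mcDC against cDC2 and cDC1 against cDC2 when 1 library was left out, and all genes called 951 to 2601, 158 to 896 and 1547 to 3467, against 1845, 438 and 2344 with all libraries. With the 2 groups alone all genes called were 1096, 251 and 3731. Quantile normalization moved the share called higher in mcDC than in cDC1 to 48.5%, and median-of-ratios scaling to 46.3%, against 61.8%. In mcDC against cDC2 median-of-ratios scaling gave 42.8% against 56.4%. With median-of-ratios scaling the all-gene median in mcDC against cDC1 was -0.028 on the log2 scale, against 0.094, with 2 members higher and 4 lower as before. Under both scalings no member's call was lost. The cause was not tested.

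Runs of consecutive title numbers hold 1 library of each subset. Deviations from group means correlated at 0.07 to 0.55 within the 9 pairs of a run, 8 of them over 0.1. Across the 18 pairs from different runs they correlated at -0.55 to 0.01, without overlap. Deviations from a group mean cancel out over its libraries, so positive values within runs push those across runs down. The lack of overlap is therefore not separate evidence. Each of the 9 libraries correlated best with its own run, a hint from the data. As 1 pair missed 0.1 and the labels name no pairing, the runs were not taken as pairs. With the run as a replicate block 773 genes were called in mcDC against cDC2, and 7, 5 and 8 members in the 3 comparisons. Tlr7 in mcDC against cDC2 (0.0423), Myd88 in mcDC against cDC1 (0.0106) and Ticam1 in cDC1 against cDC2 (0.0448) then passed. In the pathway lists 7 of 15, 1 of 4 and 16 of 27 calls were kept in every alternative. Depth limits Tlr8 most, which had 10 reads in cDC1 replicate 2. DESeq2 was not run, since no file holds counts.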

Other observations

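The genes whose pattern was most like that of each called receptor were found among the 11971 genes tested, by the root mean square difference of log2(RPKM + 1) over the 9 libraries after centring each gene on its own mean. Nearest to Tlr3 were P2ry14, a receptor for UDP sugars (0.137 on the log2 scale), Dbn1, which encodes the actin-binding protein drebrin (0.246), and Ppt1, a lysosomal thioesterase (0.256). P2ry14 averaged 8.37 RPKM in mcDC, 35.1 in cDC1 and 1.37 in cDC2. P2ry14 and Dbn1 were also among the 3 nearest to Tlr12 (0.318 and 0.27), with Tubb2b, a beta-tubulin (0.333). Nearest to Tlr11 were Fndc7 (0.107), the chemokine gene Ccl22 (0.154) and Fnip2, a folliculin partner (0.201). Ccl22 averaged 5.38 RPKM in mcDC, 58.8 in cDC1 and 5.07 in cDC2, so that it shared with Tlr11 the low level in mcDC.

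Tlr7 had as nearest genes Pram1 (0.275), Bex6 (0.326) and the coreceptor gene Cd4 (0.347). Cd4 averaged 59.6 RPKM in mcDC, 11.7 in cDC1 and 100 in cDC2. Those nearest to Tlr8 were Gcnt2, a glycosyltransferase (0.194), Pfkfb4, a regulator of glycolysis (0.227), and Cd300a, an inhibitory receptor (0.236). Tlr13 was most like Vsir, which encodes the checkpoint protein VISTA (0.144), 1600010M07Rik (0.145) and Tcp11l1 (0.158). Among the 10 genes themselves, Tlr3 and Tlr12 were each other's nearest (0.339), as were Tlr7 and Tlr8 (0.675). Tlr11 was 0.755 from its nearest member, Tlr3. These distances describe 9 libraries that share 3 subsets.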
